A study of Homo sapiens with 6 samples.

Results

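A set of 10 genes, read as markers of the epithelial or the mesenchymal state, was followed in Caki2 cells with and without PBRM1. The 10 genes were VIM, the transcription factor genes SNAI1, SNAI2, ZEB1 and ZEB2, the keratin genes KRT7, KRT8, KRT18 and KRT19, and EPCAM, out of 25369 genes listed for every sample. They were taken by symbol from a fixed list, chosen with earlier results of these data known, and all 10 were found. Caki2 is a clear cell renal cell carcinoma (ccRCC) line that makes no PBRM1 protein, a bromodomain subunit of the PBAF form of the SWI/SNF chromatin remodeler. Caki2+Vector cells carry an empty doxycycline-inducible lentiviral vector, and Caki2+PBRM1 cells carry the same kind of vector with full-length PBRM1. Both were made as stable lines by drug selection, and both were kept in doxycycline at 2 µg/ml, so the drug is common to the groups. RNA-Seq was done on 3 replicates (A, B and C) of each, and each group comes from 1 engineered line. The p-values below therefore measure the spread between these samples and not between independently made lines.

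Intermediate filaments are built from keratins in epithelial cells and from vimentin, the product of VIM, in mesenchymal cells. A keratin filament is an obligate pair of a type II and a type I chain, and simple epithelia such as those of the kidney tubule use KRT8 (type II) with KRT18 (type I), joined by KRT7 (type II) and KRT19 (type I) in duct-like cells. In the epithelial-mesenchymal transition (EMT), the zinc finger proteins of the SNAI and ZEB families repress epithelial genes such as CDH1, and vimentin replaces keratins to a varying degree. Renal carcinoma cells often hold keratins and vimentin together.

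SNAI and ZEB proteins bind the E-box CAGGTG, which reads CACCTG on the opposite strand. Promoter windows are shown for VIM, ZEB1 and ZEB2, which are some of the genes of the mesenchymal side. Start sites are those of RefSeq (GRCh38.p14), and each window was found at 1 place in GRCh37 by exact match. Each is the 250 bases before the start of the main (MANE) transcript, 5′ to 3′ on the gene's own strand, with CAGGTG or CACCTG in capitals. The VIM window is chr10:17269990-17270239 (plus strand), the ZEB1 window is chr10:31607895-31608144 (plus strand), and the ZEB2 window is chr2:145277687-145277936 (minus strand).
VIM: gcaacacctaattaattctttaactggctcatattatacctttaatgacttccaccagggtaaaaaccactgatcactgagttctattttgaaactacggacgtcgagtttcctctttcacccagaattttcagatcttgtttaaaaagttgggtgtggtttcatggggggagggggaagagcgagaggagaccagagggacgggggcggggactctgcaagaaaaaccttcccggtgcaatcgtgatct
ZEB1: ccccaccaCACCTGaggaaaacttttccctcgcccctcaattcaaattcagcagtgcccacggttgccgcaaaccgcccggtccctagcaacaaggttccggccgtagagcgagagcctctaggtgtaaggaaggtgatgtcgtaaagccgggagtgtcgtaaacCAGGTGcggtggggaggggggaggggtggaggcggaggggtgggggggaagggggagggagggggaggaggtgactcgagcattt
ZEB2: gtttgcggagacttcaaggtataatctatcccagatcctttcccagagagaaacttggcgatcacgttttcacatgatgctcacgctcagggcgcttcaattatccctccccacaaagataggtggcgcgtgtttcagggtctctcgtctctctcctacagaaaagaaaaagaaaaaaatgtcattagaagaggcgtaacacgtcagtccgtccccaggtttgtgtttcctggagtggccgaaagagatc
The ZEB1 window holds the motif 2 times, once in each orientation, and the VIM and ZEB2 windows do not hold these letters. Only the full motif was searched for, so partial matches and other E-boxes in the windows were not marked. Among all 35116 RefSeq windows of this length, 6143 (17.49%) held the motif on either strand. ZEB1 had 7 such windows, of which 2 held it. The single KRT8 window did not hold it. The start site of that window is at -21393 bases from the main KRT8 start, so the main KRT8 promoter was not read. SNAI1, SNAI2, KRT7, KRT18, KRT19 and EPCAM are named only. For SNAI2, which was set aside, this does not mean that a start site was missing.

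Values are given below as deposited: the reads on a gene divided by 1 size factor per sample, called normalized counts. Between 7312955 and 10835355 reads per sample fell on genes. PBRM1 itself lay between 182 and 195 in Caki2+Vector and between 2432 and 2682 in Caki2+PBRM1, in the direction of the labels. Caki2+Vector A stood apart: chi-square per degree of freedom, which is about 1 for pure sampling noise, was 3.09 and 2.84 between it and Caki2+Vector B and C, against 1.19 to 1.34 for the other 4 replicate pairs. The list of 8 renal epithelial markers includes CA9, which marks ccRCC rather than normal tubule cells. Of the 8, 6 passed the filter on low counts, with PAX8 at 1888 to 2190 in all 6 samples, while CA9 and LRP2 did not pass. CA9 and LRP2 had means of 1.58 and 2.21 in Caki2+Vector and 10.3 and 9.80 in Caki2+PBRM1, without overlap between the groups. The sum of 5 fibroblast markers ran from 31.2 to 35.0 in Caki2+Vector and from 33.6 to 39.1 in Caki2+PBRM1, with DCN, LUM and FAP each at 0 to 1.89, and 0 of the 2 that passed the filter were called. The 5 endothelial markers summed to at most 6.22, with CDH5 and TEK at 0 in all samples. The 5 leukocyte markers had sums from 2169.8 to 2369 in Caki2+Vector and from 2097 to 2133 in Caki2+PBRM1. Most of this was CD68, a lysosomal gene that was called as lower (log2 fold change -0.11, adjusted p = 0.0461 with limma), and ITGAM lay between 169 and 224 in all samples and was not called. CD3E was at 0 in all samples, and the defining leukocyte gene PTPRC was at 5.68 or less. The part of these markers in the results below was not tested.

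The groups were compared with limma on the log2 of the normalized count plus 1, over the 13303 genes that reached 10 in 3 or more samples, all 10 members among them, and p-values were adjusted over all of these by the Benjamini-Hochberg method. Of the 10 genes, 3 were higher in Caki2+PBRM1 (ZEB2, SNAI2 and VIM), 3 were lower (KRT7, KRT18 and KRT8), and 4 did not pass an adjusted p of 0.05 (SNAI1, ZEB1, KRT19 and EPCAM). In the background of all genes tested, 29.2% were called, 16.2% as higher and 13.0% as lower. The Caki2+PBRM1 samples lay above all Caki2+Vector samples for 6 of the 10 genes and below them for 3, and 41.7% of all genes tested showed no overlap in either direction (22.1% above, 19.6% below). With 3 against 3 samples an exact permutation test of a single gene cannot go below p = 0.1, which was its value for those 9 genes, and for KRT19 it was 0.3. The libraries are of bulk RNA, in which fewer cells of a kind and less RNA per cell cannot be told apart.

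**Figure D1:**
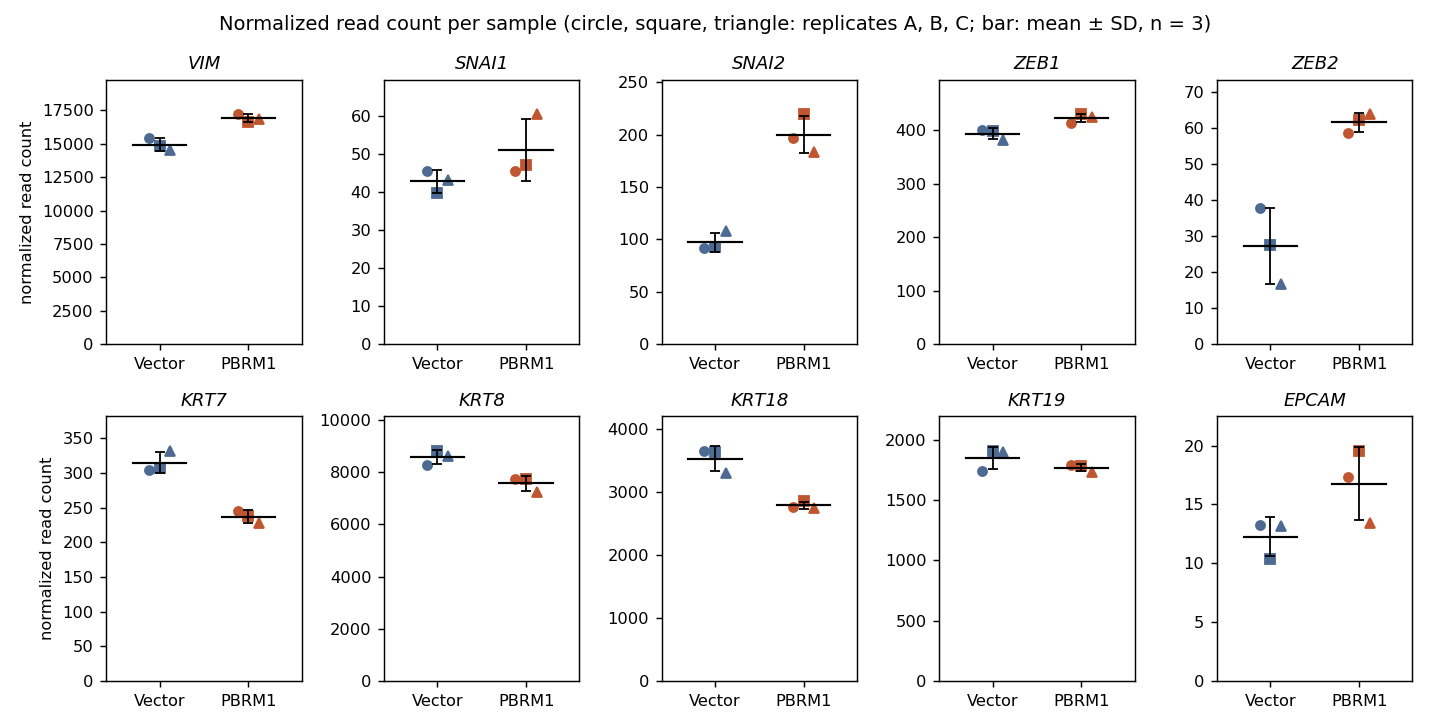
Normalized read count (vertical axis, linear, from 0) of each of the 10 genes in the 3 Caki2+Vector (blue) and 3 Caki2+PBRM1 (orange) samples, with circles, squares and triangles for replicates A, B and C and bars for mean ± SD. The groups are apart for every gene except KRT19, and for SNAI1 the gap is between 45.4 and 45.5.

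VIM (chr10:17270240-17279592, plus strand, GRCh37) was the most abundant of the 10 per length in both groups and rose by a small amount. Its normalized counts were 15443, 14822 and 14534 in Caki2+Vector A, B and C and 17209.5, 16623 and 16885 in Caki2+PBRM1 A, B and C. Every Caki2+PBRM1 sample was above every Caki2+Vector sample. The means were 14933 ± 465 and 16906 ± 294 (SD, n = 3), and the fitted rise was 0.18 ± 0.030 (SE) on the log2 scale, or 1.13-fold (adjusted p = 3.45e-05 with limma). VIM took between 0.166% and 0.177% of all reads on genes in Caki2+Vector and between 0.183% and 0.189% in Caki2+PBRM1. The rise lost its call after quantile normalization (log2 fold change 0.03, adjusted p = 0.435 with limma). Of the exons of the main VIM transcript in GENCODE, 29.76% of bases are shared with the antisense gene VIM-AS1. The library protocol described has no step that marks strand. The VIM-AS1 means were 25.1 (Caki2+Vector) and 21.5 (Caki2+PBRM1), far under VIM.

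SNAI2, which encodes the repressor Slug, rose. Its normalized counts were 91.8, 92.6 and 108 in Caki2+Vector and 197, 219.5 and 184 in Caki2+PBRM1, so that the lowest Caki2+PBRM1 sample was well above the highest Caki2+Vector sample. The means were 97.4 ± 9.05 and 200.2 ± 18.1 (SD, n = 3), a ratio of 2.05, and the fitted log2 fold change was 1.03 ± 0.11 (SE, adjusted p = 9.03e-09 with limma). SNAI1 encodes Snail, the founding member of the family. Its counts were 45.4, 39.7 and 43.1 in Caki2+Vector and 45.5, 47.1 and 60.4 in Caki2+PBRM1 (42.8 ± 2.90 and 51.0 ± 8.20, SD, n = 3). Caki2+PBRM1 C stood well clear of the Caki2+Vector samples, while Caki2+PBRM1 A was within 0.1 of the highest of them. The log2 fold change of SNAI1 was 0.24, with a 95% interval of -0.11 to 0.59, and did not pass (adjusted p = 0.316 with limma). SNAI1 lies at chr20:48599517-48605423 on the plus strand.

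ZEB2 (chr2:145121931-145278624, minus strand) had the largest fold change of the 10, with a wide spread in Caki2+Vector. Its normalized counts were 37.9, 27.4 and 16.8 in Caki2+Vector and 58.5, 62.2 and 63.8 in Caki2+PBRM1, from 14 to 40 reads and from 54 to 76 reads. The Caki2+PBRM1 samples were close together, whereas the Caki2+Vector samples were spread from 16.8 to 37.9 without reaching them. The means were 27.3 ± 10.5 and 61.5 ± 2.72 (SD, n = 3), a ratio of 2.25, and the fitted log2 fold change was 1.21 ± 0.22 (SE), with a 95% interval of 0.77 to 1.66 (adjusted p = 0.000106 with limma). Without Caki2+Vector C the log2 fold change was 0.91, and without Caki2+Vector A it was 1.47, both past the threshold. ZEB1 (chr10:31607424-31818742, plus strand) is the paralog that was the more abundant here. It was at 400.4, 398 and 381 in Caki2+Vector and 414, 429 and 424 in Caki2+PBRM1, with means of 393 ± 10.5 and 422 ± 7.88 (SD, n = 3). The groups did not overlap, but the log2 fold change of 0.10 did not pass (95% interval -0.03 to 0.24, adjusted p = 0.247 with limma). The antisense genes ZEB1-AS1 and VIM-AS1 were tested and not called, and ZEB2-AS1 was at 0 in all samples.

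KRT18 (chr12:53342655-53346690, plus strand), the type I partner of KRT8, fell. It was at 3652, 3641 and 3295 in Caki2+Vector and 2761, 2855 and 2741 in Caki2+PBRM1, and the Caki2+PBRM1 samples were all lower. The means were 3529 ± 203 and 2786 ± 60.8 (SD, n = 3), a ratio of 0.789 (fitted log2 fold change -0.34 ± 0.041 SE, adjusted p = 1.74e-07 with limma). KRT8 (chr12:53290971-53343738, minus strand) fell too. It was at 8276, 8812 and 8627 in Caki2+Vector and 7737, 7743 and 7228 in Caki2+PBRM1, again without overlap. The means of 8572 ± 272 and 7569 ± 296 (SD, n = 3) gave a ratio of 0.883 (fitted log2 fold change -0.18 ± 0.035 SE, adjusted p = 0.000209 with limma).

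KRT7 (chr12:52626304-52645970, plus strand), a type II keratin of ducts and glands, had the lowest log2 fold change of the 10, though its interval overlapped that of KRT18. It was at 304, 308 and 332 in Caki2+Vector and 246, 238 and 227 in Caki2+PBRM1, with means of 315 ± 15.2 and 237 ± 9.26 (SD, n = 3). The groups were apart, and the ratio of the means was 0.754 (fitted log2 fold change -0.41 ± 0.077 SE, adjusted p = 0.000159 with limma). KRT19 (chr17:39679869-39684560, minus strand), a small type I keratin without a tail, is the member whose groups overlapped. It was at 1743, 1907 and 1901 in Caki2+Vector and 1795, 1781 and 1734 in Caki2+PBRM1 (1850.4 ± 93.2 and 1770.0 ± 31.9, SD, n = 3), with Caki2+Vector A inside the Caki2+PBRM1 range. Its log2 fold change of -0.06 (95% interval -0.15 to 0.03) did not pass (adjusted p = 0.303 with limma). Without Caki2+Vector A it was -0.11 and passed (adjusted p = 0.0252), and it also passed when library totals were set equal (-0.12, adjusted p = 0.0371).

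Some keratin reads may not be placed with certainty. The overlaps given here are those of GENCODE, while the reads were counted on the UCSC annotation, whose exons were not compared. The KRT8 and KRT18 genes overlap by 1084 bases on opposite strands, and 375 bases (26.54%) of the main KRT18 transcript are also annotated as KRT8 exons. KRT7-AS, which was not among the genes counted, covers 13.6% of the main KRT7 transcript. GENCODE names 51 pseudogenes after KRT8, 68 after KRT18 and 5 after KRT19, so the counts of these genes depend on how reads with several matches were treated. The 7 keratin pseudogene rows in the files summed to at most 4.79 in any sample.

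EPCAM (chr2:47572297-47614740, plus strand), an adhesion molecule of epithelial surfaces, was nearly silent, with 11 to 22 reads per sample. Its normalized counts were 13.3, 10.4 and 13.2 in Caki2+Vector and 17.3, 19.6 and 13.4 in Caki2+PBRM1. The means of 12.3 ± 1.63 and 16.8 ± 3.10 (SD, n = 3) gave a log2 fold change of 0.41 with a 95% interval from -0.17 to 1.00, and the difference did not pass (adjusted p = 0.297 with limma). What size of difference could be detected at this depth was not tested. CDH1, the E-cadherin gene, had 0 to 2 reads per sample in both groups and was not tested.

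**Figure D2:**
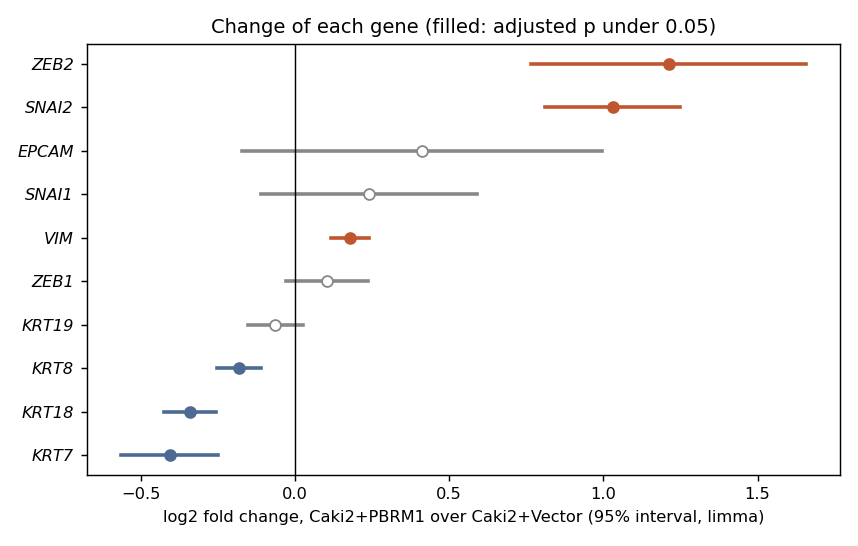
Log2 fold change of each gene in Caki2+PBRM1 over Caki2+Vector (horizontal axis) with its 95% interval from limma, with filled points for an adjusted p under 0.05. ZEB2 and SNAI2 are at 1.21 and 1.03, VIM is at 0.18, and KRT8, KRT18 and KRT7 are at -0.18, -0.34 and -0.41.

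Ratios of reads within a sample do not depend on the size factors. They were computed after the changes above had been seen and are given as a description. VIM reads per KRT8 read were 1.87, 1.68 and 1.68 in Caki2+Vector and 2.22, 2.15 and 2.34 in Caki2+PBRM1. VIM reads per KRT18 read went from 4.24 ± 0.17 to 6.07 ± 0.22 (SD, n = 3), and VIM reads per KRT7 read from 47.6 ± 3.55 to 71.3 ± 2.51. Over KRT19, the ratio went from 8.09 ± 0.67 to 9.55 ± 0.20. All 4 ratios of VIM to a keratin were higher in every Caki2+PBRM1 sample than in any Caki2+Vector sample. Within the keratin pair, KRT8 reads per KRT18 read went from 2.43 ± 0.18 to 2.72 ± 0.083, with 2.62 as the highest Caki2+Vector value and 2.64 as the lowest Caki2+PBRM1 value. Between the paralogous factors, SNAI2 reads per SNAI1 read went from 2.28 ± 0.24 to 4.01 ± 0.86, and ZEB2 reads per ZEB1 read from 0.0692 ± 0.025 to 0.146 ± 0.0046. The exact permutation p of each of these 7 ratios was 0.1, the smallest it can be.

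**Figure D3:**
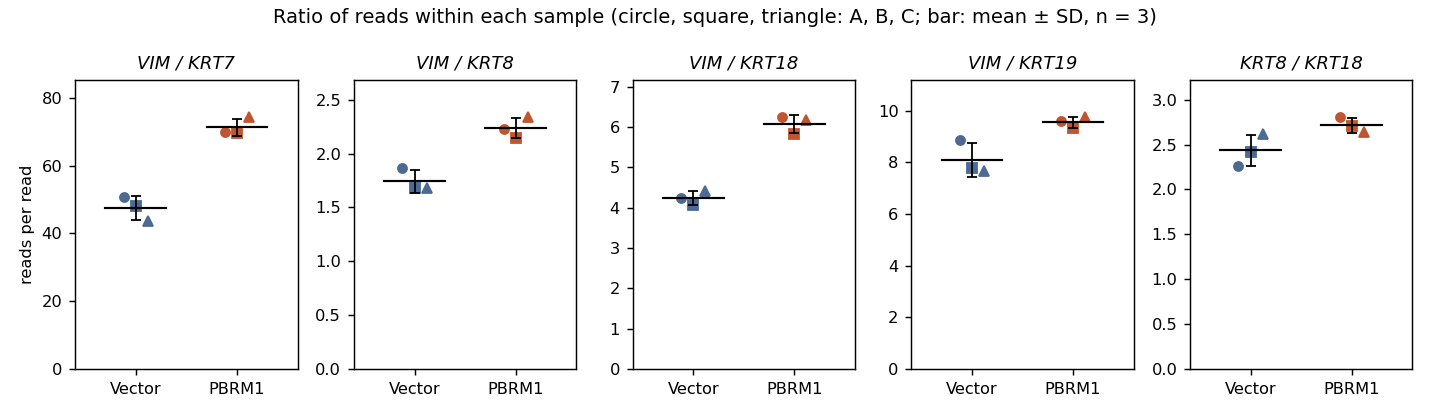
Reads of the first gene per read of the second (vertical axis, linear, from 0) in each sample, with circles, squares and triangles for replicates A, B and C and bars for mean ± SD. The VIM to keratin ratios of the 3 Caki2+PBRM1 samples are above those of the 3 Caki2+Vector samples in each panel, and the KRT8 to KRT18 ratios nearly meet, at 2.62 and 2.64.

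Levels were compared between genes as normalized counts per kilobase of the main transcript. The bases shared with genes on the opposite strand and the pseudogenes, given above, differ between these genes. Their part in the levels was not tested. In Caki2+Vector the order was VIM (6933), KRT8 (4805), KRT18 (2498), KRT19 (1331), KRT7 (194), ZEB1 (66.2), SNAI2 (44.7), SNAI1 (25.1), EPCAM (7.94) and ZEB2 (2.95). The ranges of neighbours in this order did not overlap. In Caki2+PBRM1 the order was the same but for SNAI2 (91.8), which passed ZEB1 (71.1), and again no neighbours overlapped. ZEB2 was thus the least abundant of the 10 per length in both groups, at 2.95 and 6.64, and VIM and the KRT8 and KRT18 pair were the most abundant. VIM was 1.44-fold above KRT8 in Caki2+Vector and 1.85-fold above it with PBRM1, and KRT18 was 1.88-fold and 1.55-fold above KRT19.

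The wider gene lists of the epithelial-mesenchymal scale were followed in the same fit. Over all genes tested, 16.2% were higher and 13.0% lower, with a median log2 fold change of -0.0036. The counts and medians below are to be read against these. The lists were chosen with earlier results of these data known, so their counts and medians are given as a description. Of 25 mesenchymal genes 16 were tested, of which 11 were higher and 1 was lower, with a median log2 fold change of 0.46. FSTL1, a secreted glycoprotein gene, went from 6.10 ± 3.32 to 75.6 ± 2.31 normalized counts (SD, n = 3). It passed the filter only through Caki2+PBRM1, where it is high, and with 10 required in every sample 10 genes of the list were higher. TNC, which encodes the matrix protein tenascin C, rose by 1.27 on the log2 scale, and THBS1 (thrombospondin) by 1.23. LOX, the enzyme that crosslinks collagen, rose by 1.12. FN1, which encodes fibronectin and is a standard mesenchymal marker, went from 176188, 190651 and 184887 in Caki2+Vector to 345140, 353498 and 346254 in Caki2+PBRM1 (log2 fold change 0.92, adjusted p = 2.41e-21 with limma). COL5A2, the 1 gene that was lower (log2 fold change -0.53), is named after its values were seen, because it was alone. CDH2, the N-cadherin gene, was abundant in both groups (3607 ± 127 and 3398 ± 4.54, SD, n = 3) and did not pass (log2 fold change -0.09, adjusted p = 0.0853 with limma).

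Of 15 other EMT transcription factors, 10 were tested, 7 were higher and 1 was lower, with a median log2 fold change of 0.23. KLF8 rose by 0.71 on the log2 scale, FOXC2 by 0.31 and SOX9 by 0.25. HMGA2, an architectural chromatin protein gene and the 1 that was lower, changed by -0.10. FOXC2 and HMGA2 were close to the threshold (adjusted p = 0.0448 and 0.0473 with limma). The count of lower genes was 0 with edgeR, with DESeq2, with no filter, or at an adjusted p under 0.01. TWIST1 and TWIST2 were at 0 in all samples. The count of 7 was 3 with DESeq2 on the recovered reads, and 4 with equal library totals, without Caki2+PBRM1 A, or at an adjusted p under 0.01. The mature miR-200 family, which represses ZEB1 and ZEB2, is not measured by libraries of poly(A) RNA, and its 5 gene rows summed to at most 2.83.

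On the epithelial side, 12 of 18 epithelial surface genes were tested, of which 1 was higher and 5 were lower, with a median log2 fold change of -0.18. AP1M2, an adaptor subunit for sorting to the basolateral membrane, fell by 0.60 on the log2 scale, from 262 ± 11.3 to 173 ± 10.5 (SD, n = 3). The tight junction gene CLDN4 went from 1995 ± 24.8 to 1526 ± 5.87, with a log2 fold change of -0.39 (adjusted p = 1.53e-08 with limma), and TJP1 (ZO-1), with -0.33, fell too. CD24 rose by 0.33. The count of lower genes was 3 with DESeq2. Of 12 epithelial identity factors, 5 were tested, 2 were higher and 1 was lower, with a median of 0.12. GRHL1, a grainyhead factor, fell by 0.56 on the log2 scale, KLF5 rose by 0.28 and ELF3 by 0.12, and ELF3 was close to the threshold (adjusted p = 0.0491 with limma). GRHL2 and the splicing regulator gene ESRP1 were under the filter, with at most 1 and 8 reads in a sample.

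**Figure D4:**
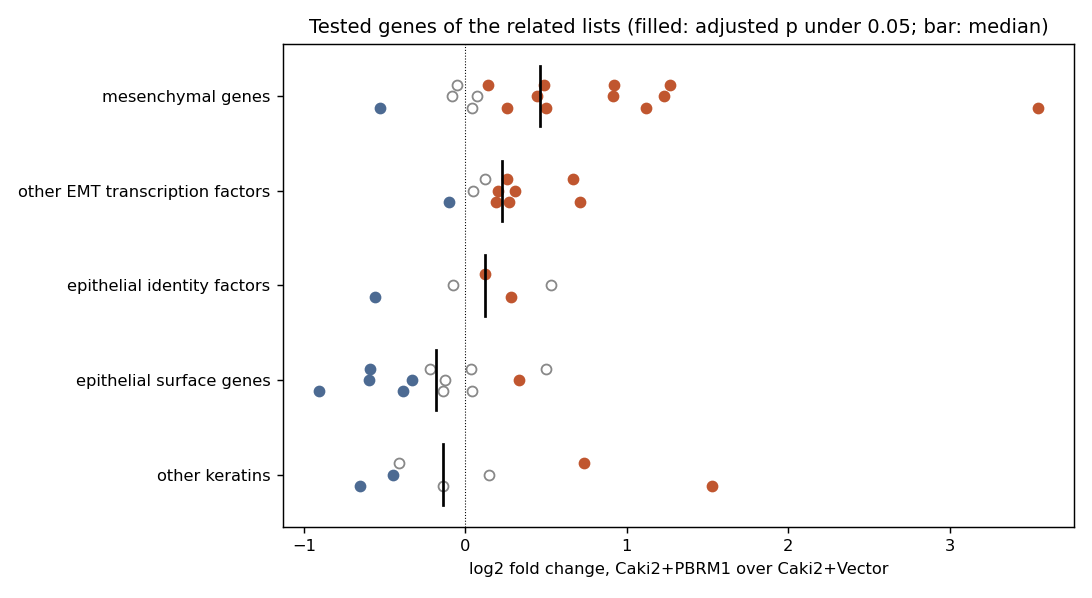
Log2 fold change (horizontal axis) of each tested gene of 5 lists, with filled points for an adjusted p under 0.05 (orange higher, blue lower) and a bar at the list's median. The medians are at 0.46 for mesenchymal genes, 0.23 for other EMT transcription factors, 0.12 for epithelial identity factors, -0.18 for epithelial surface genes and -0.14 for other keratins.

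Of 52 other keratin rows, 22 were at 0 in all samples, the pseudogene KRT42P among them. Tested were 7, of which 2 were higher and 2 were lower, with a median log2 fold change of -0.14. KRT80, a type II keratin, fell as KRT7, KRT8 and KRT18 did. It was at 1732, 1893 and 1819 in Caki2+Vector and 1305, 1306 and 1385 in Caki2+PBRM1 (log2 fold change -0.45, adjusted p = 6.54e-09 with limma). KRT20, a type I keratin of intestinal and urothelial epithelium, went the other way. It was at 156, 153 and 138 in Caki2+Vector and 240.5, 252 and 254 in Caki2+PBRM1 and rose by 0.74 on the log2 scale (adjusted p = 1.61e-07 with limma). KRT222, a keratin-like gene, went from 33.6 ± 3.98 to 98.4 ± 5.67 (SD, n = 3), with a log2 fold change of 1.53. The keratins called thus included 5 that were lower (KRT7, KRT8, KRT18 and KRT80, and KRT4 at under 50 normalized counts) and 2 that were higher. The call of KRT4 was close to the threshold (adjusted p = 0.0435 with limma).

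Of 12 other intermediate filament genes, 8 were tested and 2 were higher, with a median log2 fold change of 0.064. NEFL, the light neurofilament chain, was at 2751, 2979 and 3086 in Caki2+Vector and 5536, 5413 and 5565 in Caki2+PBRM1 and rose by 0.91 on the log2 scale. LMNA (lamin A/C) was close to the threshold (log2 fold change 0.11, adjusted p = 0.0468 with limma), and the count of 2 was 1 in 8 of 16 other settings, DESeq2, equal library totals and quantile normalization among them. All 6 genes of the plakins that tie filaments to junctions were tested, with 1 higher, 2 lower and a median of 0.12. EVPL (envoplakin) fell by 0.50, PPL (periplakin) by 0.30, and DSP (desmoplakin) rose by 0.19. Of the renal epithelial markers 3 were higher and 0 lower. The count higher was 5 with no filter on low counts, where CA9 and LRP2 were tested too, and 2 with 10 required in every sample. Those higher included the tubule cadherin gene CDH16 (log2 fold change 0.40) and MME. MME passed the filter only through Caki2+PBRM1, where it is high.

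Among the genes with the pattern nearest to ZEB2 over the 6 samples, by Euclidean distance between log2 values centred on each gene's mean, were ARHGDIB (0.353) and SYTL2 (0.438), against a median distance of 1.72 over all genes tested. Nearest to KRT7 were IL32 (0.0499), NTN1 (0.0673) and P2RY6 (0.0812), against a median of 0.583. The 6 samples are those of the 2 groups, so that genes with a like difference between the groups are near each other by this measure.

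Leaving out Caki2+Vector A kept all 6 calls among the 10 genes, with log2 fold changes of 0.20 for VIM, 0.99 for SNAI2, 1.47 for ZEB2, -0.43 for KRT7, -0.20 for KRT8 and -0.31 for KRT18. The number of called genes over the whole table was 2152 higher and 1734 lower with the deposited size factors, and 1624 higher and 2777 lower when library totals were set equal. Under that scaling 3 of the 10 genes were higher and 4 lower.

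**Figure D5:**
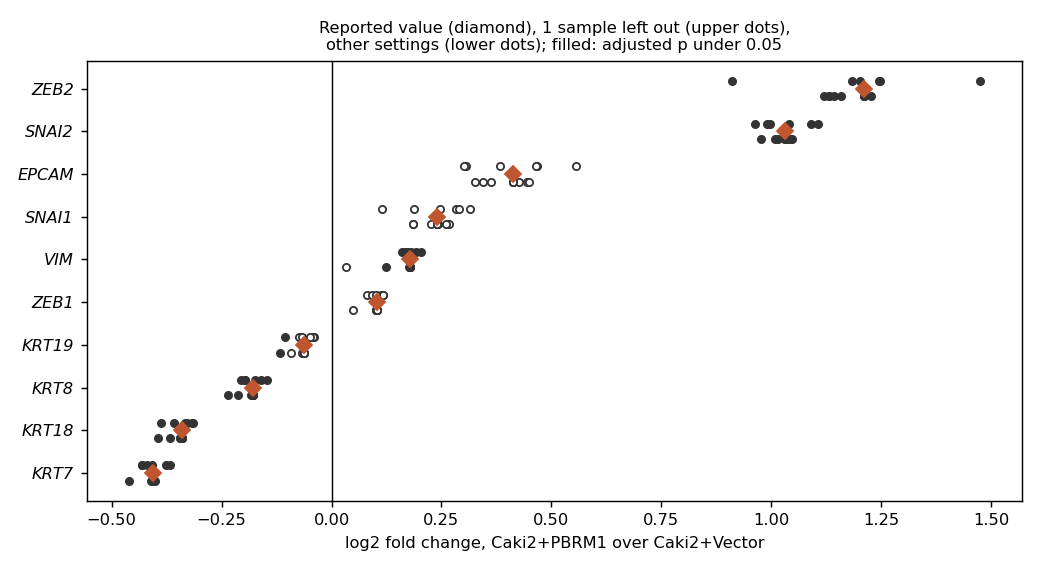
Log2 fold change (horizontal axis) of each gene as reported (diamond), with 1 sample left out (upper dots) and under the other settings (lower dots), filled where the adjusted p is under 0.05. No dot crosses 0, VIM has 1 open dot at 0.03, and KRT19 has 2 filled dots at -0.11 and -0.12.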

How the data were processed

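Poly(A) RNA of 3 Caki2+Vector and 3 Caki2+PBRM1 samples was sequenced (100 bp paired-end reads, HiSeq2000). The authors trimmed adapters, removed rRNA reads, aligned to hg19 with STAR, and counted reads with htseq-count on the UCSC hg19 annotation. Tool versions and the treatment of strand and of reads with several matches are not given in the sources used here. The values the authors deposited (a signal per gene) are counts divided by a DESeq2 size factor per sample, from 0.834 to 1.191, and are not divided by length. Every non-zero value was a whole multiple of 1 step (tolerance 0.01 reads), so whole reads were recovered (100% of values) for depth, ratios and the count models.

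In R 4.3.3, limma 3.58.1 with its trend and robust options was fitted to log2(normalized count + 1) after the filter of at least 10 in 3 samples, with 0.05 as the threshold of the adjusted p (Benjamini-Hochberg). The pseudocount pulls log2 fold changes of low genes towards 0, and a fold fitted on mean log2 values can differ from the ratio of the means. Alternatives were edgeR 4.0.16 (quasi-likelihood, TMM) and DESeq2 1.42.0 on recovered reads, pseudocounts of 0.5 and 4, no filter, at least 10 in every sample, equal library totals, quantile normalization, the replicate letter as a block, each sample left out, and an adjusted p under 0.01. The fit was tested on simulated data. The members and the gene lists were chosen with earlier results of these data known.

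Named genes are the 10 members, PBRM1, up to 4 called genes per list with the largest absolute log2 fold change and whose higher group had a mean of 50 or more, CDH1, CDH2, FN1, TWIST1, ESRP1 and GRHL2, and the 3 nearest patterns to the member with the largest rise and to that with the largest fall. Some genes that this rule picks are not reported here. Others are named for completeness of a small count, or as markers at or near 0. Coordinates and lengths are those of GENCODE on GRCh37, in which 84.9% of the symbols and all 10 members were found. Python 3.11.15 was used outside R. Intervals cover the spread between samples at the depth given.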

Additional observations from a re-analysis of the deposited data

How the results depend on the processing

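Under the 16 alternatives no member changed direction, and SNAI2, ZEB2, KRT7, KRT8 and KRT18 passed the threshold in all of them. VIM lost its call with quantile normalization (log2 fold change 0.03, adjusted p = 0.435 with limma), and KRT19 gained one with equal library totals (-0.12) and without Caki2+Vector replicate A (-0.11). The number of members higher stayed at 3 except with quantile normalization (2), and the number lower at 3 except in those 2 settings (4). Over all genes, 1734 were lower, against 1069 with DESeq2, 2777 with equal library totals, which moved the median log2 fold change of all genes to -0.058, and 1025 at an adjusted p under 0.01. With 1 sample left out, 1597 to 2251 genes were higher and 1201 to 1903 lower. With the replicate block, 2249 genes were higher and 1858 lower, and 3 members were called each way. The labels do not say whether samples of the same letter were prepared as pairs. Deviations of same-letter samples from their group means correlated at 0.0059, -0.0077 and 0.014 across 13303 genes. Not every sample correlated best with its own letter. Taken across all of these genes, the values show no shared effect of the letter. They cannot exclude an effect on some of the genes, and they cannot tell how the samples were prepared. Of the lists, other EMT transcription factors had 3 higher with DESeq2 (7 as reported), and mesenchymal genes had 9 to 11 higher throughout. Renal epithelial markers had 5 higher with no filter, where CA9 and LRP2 were tested too, and 2 with at least 10 in every sample (3 as reported). Small list counts also moved with 1 sample left out. Without Caki2+Vector A, filament linkers had 3 higher (1 with all samples), mesenchymal genes 2 lower (1) and other intermediate filament genes 1 higher (2) and 1 lower (0). Other keratins had 1 lower (2) without Caki2+Vector B or C or Caki2+PBRM1 A or C, and epithelial identity factors had 1 higher (2) without any of the samples but Caki2+Vector A. Other intermediate filament genes had 1 higher without any 1 Caki2+PBRM1 sample. HMGA2 was not called without Caki2+Vector C or any 1 Caki2+PBRM1 sample, CD68 was not called without any 1 of the samples but Caki2+Vector A, and COL5A2 was not called without Caki2+PBRM1 B. The cause of these shifts was not tested. Depth limits SNAI1, EPCAM and ZEB2 most, with 11 to 76 reads per sample.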
